A study of Rattus norvegicus with 12 samples.

Results

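Across 12 hippocampal arrays, 3 were set apart by how much signal they had lost at the 5′ end of dap, a bacterial RNA that serves as a control for labelling. The 3 arrays were selected on the dap value itself, the log2 signal of the 5′ probe set minus that of the 3′ probe set, which had to lie below -1. The choice was made among the 10 arrays that the submitters had not marked as failed, and the other 7 of those 10 formed the comparison. The selected arrays were bLR replicate 3 at -1.82, bLR replicate 2 at -1.54 and bHR replicate 6 at -1.36, which lay just inside the limit. The other 7 arrays ran from -0.42 on bHR replicate 3, the nearest value on the other side of the limit and well clear of it, to -0.07 on bLR replicate 1. These dap values define the classes and are given as a description, with no test. Below, the 3 are called the loss arrays, and where 3 levels of a gene are given they stand in the order bLR replicate 3, bLR replicate 2 and bHR replicate 6.

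Each array held RNA of the whole hippocampus of 1 adult male rat, of the 4th generation of selective breeding, aged P102-107 in days. Bred High Responder (bHR) rats come from a line selected for high locomotion in an unfamiliar place, and bred Low Responder (bLR) rats from a line selected for low locomotion. No drug, transgene or surgery is named for either line, and all rats had been scored for locomotion earlier in life. The loss arrays were 2 of 5 passing bLR arrays and 1 of 5 passing bHR arrays. Locomotor scores of the loss rats were 319, 495 and 1328 beam breaks, of which 319 was the lowest and 1328 the highest among the passing arrays. The failed arrays, bHR replicate 1 and bLR replicate 5, had dap values of 1.04 and 0.98 and were not used. Values are log2 expression of 9962 genes, made by the authors with RMA, and every difference below is loss arrays minus other arrays with line as a term. Dentate granule cell gene Prox1 (mean level 7.32) and neuronal genes Hpca (11.47) and Nrgn (11.47) were present, as the labelled tissue would have them. So was the astrocyte filament gene Gfap (10.85). In tissue of mixed cells, fewer cells of a type and less RNA per cell cannot be told apart.

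On arrays of this design, RNA is copied from its poly-A tail, so the labelled copies start at the 3′ end of a transcript and thin out towards its 5′ end. Broken RNA, or copying that stops early, leaves fewer copies of the far end. Control transcripts carry separate probe sets near their 5′ end, middle and 3′ end, and the drop between them is a customary reading of RNA and labelling quality. Most probe sets for genes lie near the 3′ end as annotated when the array was designed, so a gene whose probes lie far upstream of its real poly-A site is read like a 5′ set.

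Other transcripts with separate end sets were compared in the same way, and beta-actin, GAPDH and thr had lower 5′ minus 3′ values on every loss array than on any other. The same quantity for beta-actin (Actb) came to -3.65 on bLR replicate 3, -2.89 on bLR replicate 2 and -2.30 on bHR replicate 6, against -1.95 to -1.36 (median -1.57) on the other 7 arrays. All 3 loss arrays lay below all 7 others, in the same order as for dap. The line-adjusted difference was -1.33, with p = 0.02 in a two-sided exact permutation test within lines, the smallest p that its 50 arrangements can give. GAPDH, a glycolytic enzyme, read -1.25, -0.54 and 0.00 on the same 3 arrays, against 0.12 to 0.34 (median 0.19) elsewhere. For thr, a second bacterial RNA, the values were -1.82, -1.51 and -1.35, against -1.24 to -0.50 (median -0.81). Differences for GAPDH and thr were both -0.76, each again with the exact p at its smallest value of 0.02. Over the 11 control transcripts tested, the adjusted p for beta-actin, GAPDH and thr was 0.073, so none passed 0.05 in a design that could not give less than 0.02 for any single transcript. Without line as a term, labels were permuted across lines, which has more arrangements and so a lower smallest p. That permutation test gave -1.37, -0.81 and -0.74 with an adjusted p of 0.0306 for each. The lower p thus reflects the lower limit of the test, and the thr difference was no larger than with line.

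The 8 other control transcripts did not share one pattern. The bacterial RNAs lys (-0.14, exact permutation p = 0.04, adjusted p = 0.11) and phe (-0.27, exact permutation p = 0.10, adjusted p = 0.183) differed little, and trpn differed by -0.03. Mean levels of their 5′ sets on the other arrays were 4.48, 4.60 and 4.29, near the lowest mean of any gene (4.08), which leaves little room for a fall. The 3′ sets of lys (4.49) and trpn (4.12) lay as low, so their 5′ minus 3′ values could show little in either direction. Controls that enter only at hybridisation, already labelled, were bioB (0.02), bioC (0.08), bioD (0.05) and cre (-0.08), with adjusted p from 0.578 to 0.60 in the same exact permutation tests. Hexokinase had a 5′ minus 3′ difference of 0.40 in the opposite direction (exact permutation p = 0.08, adjusted p = 0.176). Its 3 probe sets were all lower on the loss arrays, by -0.54 at the 5′ end, -0.80 in the middle and -0.94 at the 3′ end. The 5′ set read 4.59, 4.62 and 4.58 on the loss arrays, against 4.73 to 5.34 on the others. Those loss values were as near the lowest gene mean as the bacterial 5′ sets above, with little room for a further fall. What this did to the sign was not tested.

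**Figure D1:**
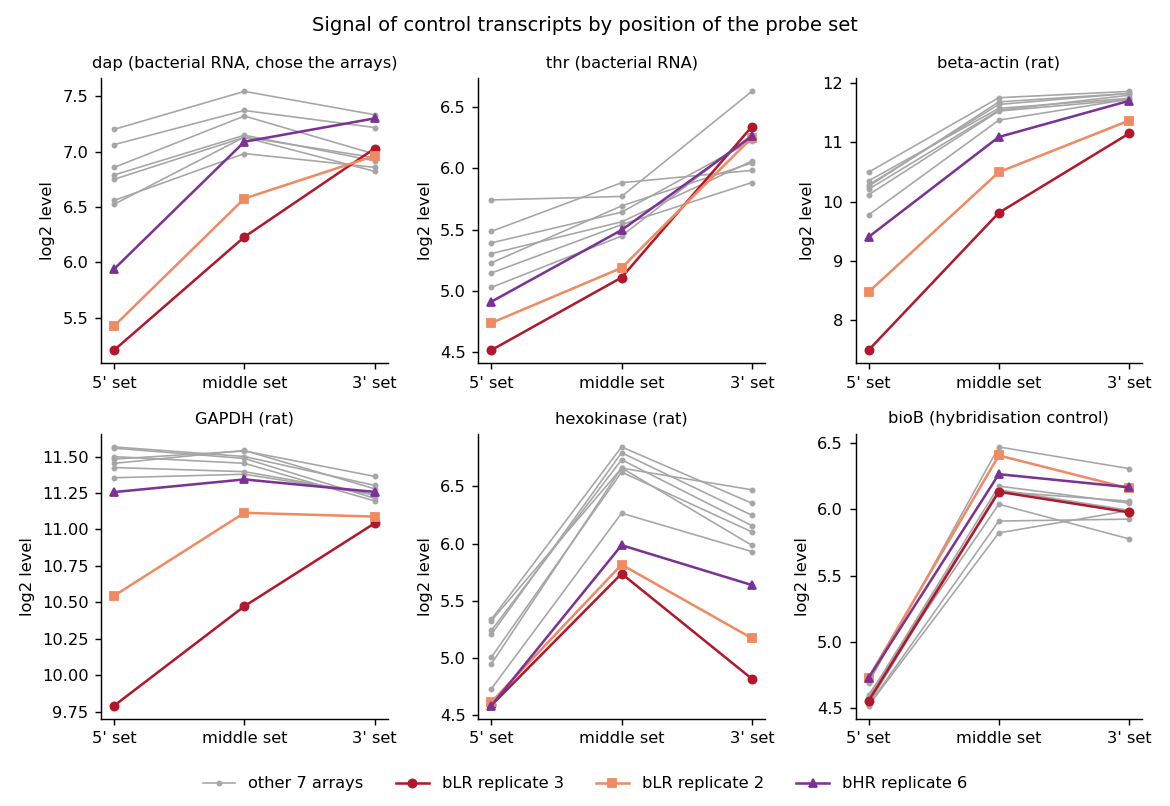
Log2 level of 6 control transcripts (vertical axes) at their 5′, middle and 3′ probe sets (horizontal axes), with 1 line per array and the other 7 arrays in grey. The 3 loss arrays drop towards the 5′ set more steeply than the others for thr and beta-actin, and for dap, which chose the arrays. For GAPDH, bLR replicates 2 and 3 do so, while bHR replicate 6 is level. The loss arrays lie low at all 3 sets for hexokinase and among the other arrays for bioB.

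Levels of the separate probe sets showed where along a transcript the signal went. Differences for beta-actin were -1.69 at the 5′ set, -1.07 at the middle set and -0.36 at the 3′ set. GAPDH followed with -0.89, -0.47 and -0.13. The bacterial thr ran from -0.58 at the 5′ set through -0.36 in the middle to 0.18 at the 3′ set. For dap the values were -1.25, -0.53 and 0.12, a description only, since its end sets chose the arrays. The 5S ribosomal RNA set was higher, by 0.28. Hybridisation controls have 18 probe sets, 9 of a revised series and 9 older ones for the same transcripts. The mean of the revised sets was 0.06 higher on the loss arrays (sets from -0.05 to 0.14), that of the older sets differed by -0.04 (from -0.16 to 0.04) and that of all 18 by 0.01, so the sign rested on which sets were read.

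Of the 9962 genes, 984 changed between the classes at an adjusted p under 0.05 in limma, 640 higher and 344 lower on the loss arrays. These are 6.42% and 3.45% of all genes, and the unadjusted p was under 0.05 for 2587. Rises were more frequent and smaller, with a median of 0.31 among the 640 and a largest value of 0.82, while falls had a median of -0.36 and reached -1.94. Of the genes that fell, 98 did so by over 0.5 and 20 by over 1 on the log2 scale, against 44 and 0 of those that rose. The median over all genes was 0.00, on arrays whose probe signals quantile normalization had brought to one distribution before gene values were made. All 3 loss arrays lay beyond all 7 others for 524 of the 640 genes that rose and 299 of the 344 that fell, while over all genes the classes did not overlap for 7.92% in the higher and 5.64% in the lower direction. Scaling moved the split between directions: repeated quantile normalization called 401 higher and 413 lower, and centring each array on its hybridisation controls called 37 higher and 167 lower from the revised sets, 178 and 119 from the older sets, and 105 and 160 from all 18. The median over all genes under these 3 centrings was -0.06, 0.05 and -0.01. All 984 genes kept their direction under each of these scalings.

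Single arrays carried much of the count. Leaving out bLR replicate 3 left 366 calls (240 higher, 126 lower), bLR replicate 1 left 478 (305 and 173) and bLR replicate 4 left 541 (343 and 198), while the other omissions gave 725 to 1164. Calls that held whichever array was left out numbered 162 of the 640 rises and 108 of the 344 falls. None of the 984 changed direction in any of these fits.

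Level mattered to both directions. Ranked by mean level and cut into 5 groups of near equal size, from lowest to highest, the genes that rose numbered 5, 33, 119, 226 and 257, and those that fell numbered 11, 52, 89, 96 and 96. Falls by over 1 numbered 0, 0, 1, 5 and 14 in the same order. The median difference was -0.02 in both the lowest group and the next, then 0.00, 0.05 and 0.07.

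**Figure D2:**
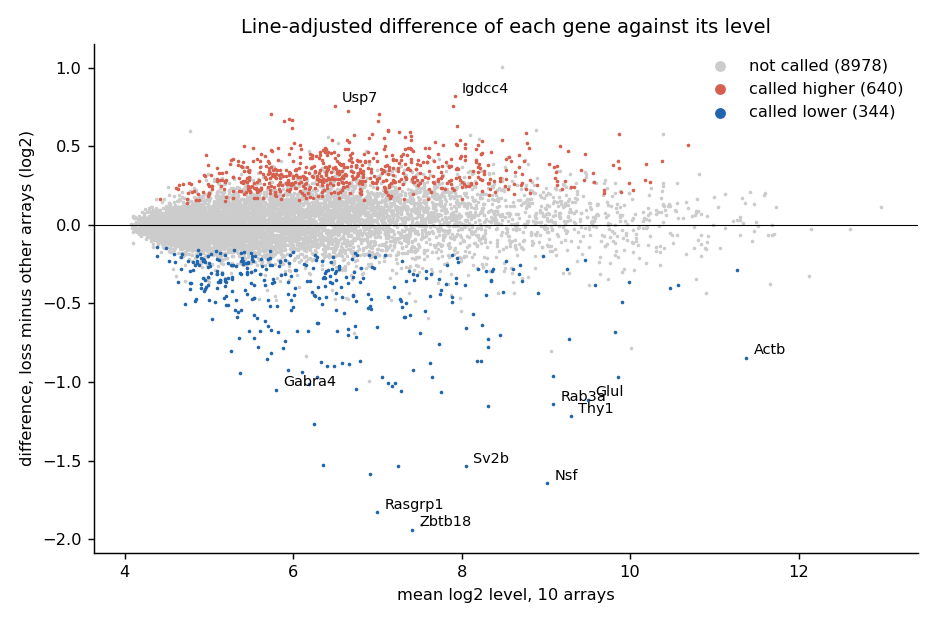
Difference of each of 9962 genes (vertical axis, log2, loss minus other arrays with line as a term) against its mean log2 level over 10 arrays (horizontal axis), with genes called higher in red and lower in blue. Rises form a broad band that ends at 0.82, and falls include a sparse tail down to -1.94 at middle and high levels.

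By a fixed rule, the 14 largest falls and 14 largest rises were taken among called genes with a name, no overlap of the classes and the same direction in both lines, for which 297 and 519 genes qualified. Zbtb18, a zinc finger repressor of transcription in developing neurons, fell furthest. Its level was 5.57 on bLR replicate 3, 5.81 on bLR replicate 2 and 6.71 on bHR replicate 6, against 7.47 to 8.38 (median 8.16) on the other 7. The difference was -1.94 (SE 0.263, adjusted p = 0.00415), a 3.84-fold lower signal. Rasgrp1, an activator of Ras that responds to diacylglycerol, read 4.73, 5.47 and 6.81 on the same arrays, against 6.81 to 7.995 (median 7.87). It fell by 1.83 (SE 0.398, adjusted p = 0.0182), with bHR replicate 6 only just below the lowest of the others.

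Nsf and Sv2b, both parts of the vesicle cycle at synapses, had been named with the rule for the classes, and they moved alike. Nsf, the ATPase that takes apart spent SNARE complexes, had a level of 6.84 on bLR replicate 3, 7.85 on bLR replicate 2 and 8.72 on bHR replicate 6, against 9.14 to 9.81 (median 9.52). Its difference was -1.65 (SE 0.285, adjusted p = 0.00724), which is 3.13-fold. Sv2b, a glycoprotein of the vesicle membrane, read 6.10, 6.84 and 7.80, against 8.20 to 8.90 (median 8.59). It fell by 1.54 (SE 0.266, adjusted p = 0.00724), or 2.90-fold. For both genes the 3 loss arrays lay below every other array, with bLR replicate 3 the lowest and bHR replicate 6 the nearest. Both calls held with each array left out, Nsf between -2.21 and -1.24 and Sv2b between -2.06 and -1.20.

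The remaining large falls spanned endocytosis, adhesion, signalling and glutamate handling. Eps15, an endocytic adaptor, fell by 1.59, and Selenot, a selenoprotein of the endoplasmic reticulum, by 1.53. Cntn1 and Thy1, cell surface proteins of axons and neurons held by a lipid anchor, fell by 1.53 and 1.22. Glul, the astrocyte enzyme that makes glutamine from glutamate, read 8.29, 8.82 and 8.99, against 9.60 to 10.07 (median 9.85). Its fall of 1.11 (SE 0.13, adjusted p = 0.00187) had the classes well apart. Slc17a7, the vesicular glutamate transporter of excitatory hippocampal neurons, read 6.53, 7.05 and 7.41, against 7.79 to 8.36 (median 8.11), and fell by 1.07. Gnai1, an inhibitory G protein subunit, fell by 1.06, the GABA-A receptor subunit gene Gabra4 by 1.05, the receptor phosphatase gene Ptprs by 1.04 and the kinesin gene Kif1b by 1.02. Of the 14, Gnai1 and Thy1 lost their call on omission of bLR replicate 1 or 4, and Rasgrp1 on omission of bLR replicate 2 or 3, while the other 11 were called in all 10 such fits.

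Rises were smaller than falls. Igdcc4, a membrane protein of the immunoglobulin superfamily, read 8.86 on bLR replicate 3, 8.49 on bLR replicate 2 and 8.16 on bHR replicate 6, against 7.50 to 7.92 (median 7.63). The difference was 0.82 (SE 0.134, adjusted p = 0.0063), or 1.77-fold. Usp7, which removes ubiquitin from nuclear proteins, had 7.11, 6.84 and 7.15, against 5.74 to 6.77 (median 6.35), and rose by 0.76 (SE 0.188, adjusted p = 0.0294). Here bHR replicate 6 was the highest array, and the spread among the other 7 was wide. Kiaa1671 and Ggnbp2 rose by 0.76 and 0.71. Eif4g3, a scaffold of translation initiation, rose by 0.71, and Psmd1, a proteasome subunit, by 0.67. Btbd7, with levels of 6.49, 6.23 and 6.34 against 5.53 to 5.86 (median 5.73), rose by 0.66 (SE 0.0773, adjusted p = 0.00187), and the ubiquitin-conjugating enzyme gene Ube2q2 by 0.66. Sbno1 (0.67), the nuclear protein gene Nucks1 (0.63), Pnrc1 (0.61), the nuclear envelope phosphatase gene Ctdnep1 (0.60), the transcription factor gene Nfib (0.60) and Rap1gds1 (0.59) made up the rest. Usp7 lost its call on omission of bLR replicate 1, 3 or 4 or of bHR replicate 6, Sbno1 on omission of bLR replicate 2 or bHR replicate 6, and Ube2q2 on omission of bHR replicate 6. The other 11 were called in all 10 fits.

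**Figure D3:**
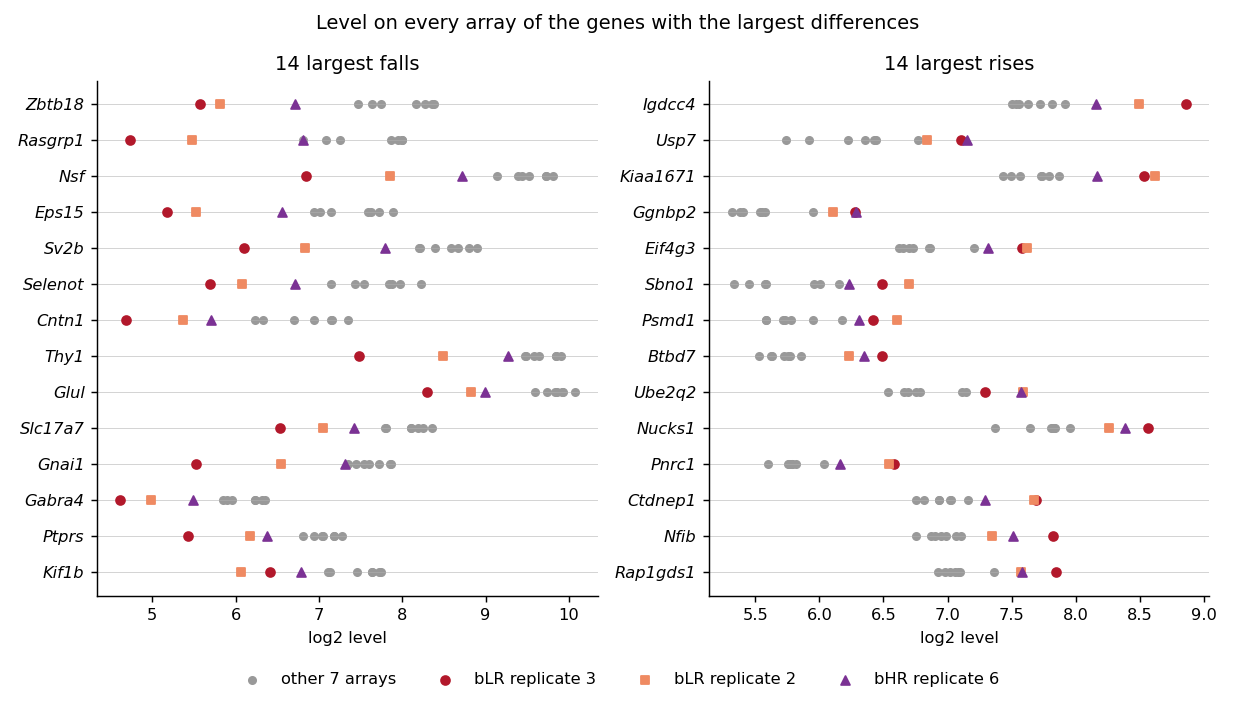
Log2 level (horizontal axes) on each of 10 arrays for the 14 genes with the largest falls (left) and the 14 with the largest rises (right), with the other 7 arrays as grey dots. For every gene drawn the loss arrays lie beyond the grey dots, and bLR replicate 3 is the farthest out for most of the falls.

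The extent of the change was graded among the arrays. Taking each array against the other arrays of its line outside the loss class, the median deviation of the 344 genes that fell was -0.48 on bLR replicate 3, -0.36 on bLR replicate 2 and -0.28 on bHR replicate 6. For the 640 genes that rose it was 0.36, 0.31 and 0.27 in the same order, which is also the order of the dap values. Those genes were called from this contrast, so the values are a description. Among the 7 other arrays, whose differences from each other do not enter the class difference, bHR replicate 3 deviated most, by -0.14 for the genes that fell and 0.10 for those that rose. It had the lowest dap value of the 7, though well clear of the limit, and also the lowest beta-actin (-1.95) and thr (-1.24) values of the 7. Its fellows lay between -0.07 and 0.10 for the first set and between -0.05 and 0.05 for the second. The extreme array was bLR replicate 3 for 254 of the 344 falls and 320 of the 640 rises, bLR replicate 2 for 47 and 190, and bHR replicate 6 for 43 and 130.

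Within each line the classes differed in the same direction for all 984 genes, while over all genes 62.6% had the same sign in both lines. Those 984 genes were called from both lines together, which favours a shared direction, so the count is a description. The difference was larger in bLR for 259 of the 344 falls and 393 of the 640 rises. Of the 20 falls by over 1, 19 were larger in bLR. The bLR loss arrays also had the lower dap values, so line and dap value cannot be told apart here. The difference between the lines was tested as an interaction in limma and passed for 0 genes, 0% of those tested, with the smallest adjusted p at 0.0835 and 1001 genes at an unadjusted p under 0.05. A trended and robust prior called 1 gene. Leaving out bLR replicate 2 or bHR replicate 4 gave 2 calls each and leaving out bLR replicate 4 gave 1.

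The calls were also made in one line and looked up in the other, whose arrays had no part in them. Among bLR arrays alone, 2 against 3, limma called 383 genes higher (3.84% of all genes) and 279 lower (2.8%). On bHR replicate 6, set against the other 4 bHR arrays, 339 of the 383 (88.5%) were higher and 250 of the 279 (89.6%) were lower, while over all genes 62.6% had the same sign in both lines. That array lay above all 4 others for 251 of the 383 (65.5%) and below all 4 for 183 of the 279 (65.6%), and beyond them the opposite way for 16 and 12. Over all genes it lay above all 4 for 24.8% and below all 4 for 33.1%. Across the 9962 genes the differences in the lines had a Pearson r of 0.499 and a Spearman rho of 0.441, given as a description, since all arrays were normalized together and genes are not independent replicates. Median differences of the called genes were 0.42 and -0.53 in bLR and 0.20 and -0.24 in bHR. With 1 bHR array against 4, limma called 0 genes, while 1557 had an unadjusted p under 0.05.

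**Figure D4:**
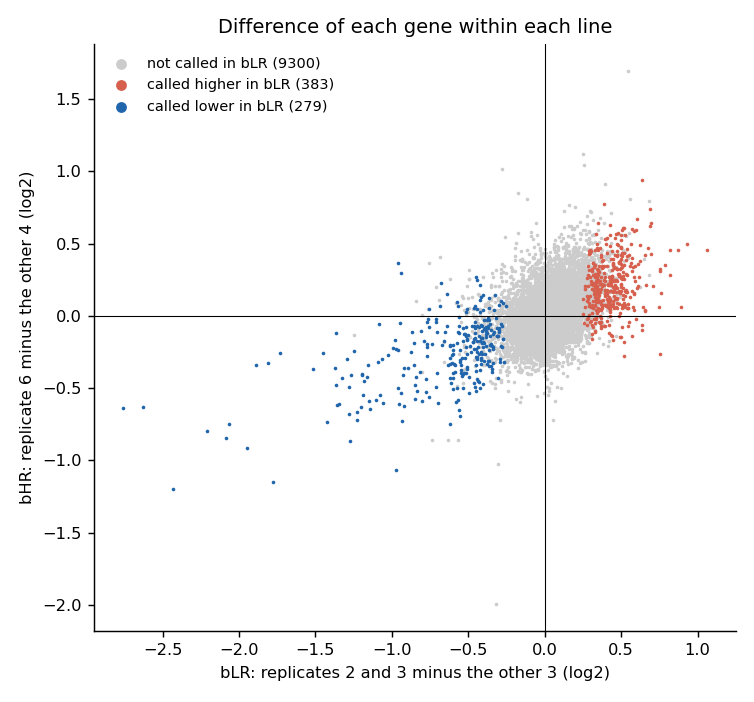
Difference between loss and other arrays of each gene in bLR (horizontal axis, log2, 2 against 3 arrays) and in bHR (vertical axis, log2, 1 against 4 arrays), coloured by the call in bLR alone. Most of the 383 red and 279 blue genes lie on the same side of 0 in bHR, and the largest falls are smaller there.

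Among 29 gene lists, genes of the presynaptic vesicle cycle and of astrocytes had the highest shares of falls. Of 42 measured genes of synaptic vesicles and exocytosis, 12 fell and 2 rose (28.6% and 4.76%, against 3.45% and 6.42% over all genes), with a median of -0.05. Nsf and Sv2b, named beforehand with the rule, are among the 12, and the list was chosen with earlier results known, so the share is a description. Besides Nsf, Sv2b and Slc17a7, the falls included the active zone gene Pclo, at 4.79, 5.08 and 5.25, against 5.55 to 6.13 (median 5.798). It fell by 0.78 (SE 0.122, adjusted p = 0.00609). Of the 12 falls, 5 were called whichever array was left out, these 4 genes among them, and the falls came to 5 on omission of bLR replicate 3 and 6 on omission of bLR replicate 1 or 4. Rab3a, a small GTPase of vesicles, fell by 1.14 with overlapping classes, since it read 9.11 on bHR replicate 6 and 9.07 on the lowest of the others. The rises were the paralog of Sv2b, Sv2a, by 0.28 and the active zone scaffold gene Erc1 by 0.23, and both calls were lost on omission of bLR replicate 1, 2 or 3 or of bHR replicate 6, and 1 of them on omission of bHR replicate 2 or 4 or bLR replicate 4 or 6.

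Of 19 astrocyte markers, 6 fell and 1 rose (31.6% and 5.26%), with a median of -0.11, and all 6 falls held whichever array was left out. Gja1, a gap junction protein of astrocytes, read 7.39, 7.48 and 7.85, against 8.12 to 8.66 (median 8.50), and fell by 0.87 (SE 0.134, adjusted p = 0.0058). The glutamate transporter gene Slc1a3 read 9.07, 8.63 and 8.64, against 9.25 to 9.71 (median 9.49), and fell by 0.72 (SE 0.11, adjusted p = 0.0054). Here bLR replicate 2 and bHR replicate 6 were the lowest. Glul, the sodium pump subunit gene Atp1b2 (-0.66), the transporter gene Slc1a2 (-0.36) and the growth factor receptor gene Fgfr3 (-0.35) were the other falls. Gjb6, a second astrocyte gap junction gene, rose by 0.36, and the count of rises was 0 on omission of bLR replicate 1, 2 or 4 or of bHR replicate 2 or 4 and 2 on omission of bLR replicate 6. The defining astrocyte gene Gfap differed by 0.07 (SE 0.0699, adjusted p = 0.598) and Aldoc by -0.01 (SE 0.0601, adjusted p = 0.927), and both have a high level in this list. The summed level of the list was 13.84 to 14.05 on the loss arrays and 14.06 to 14.18 on the others.

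Receptor subunits called in either direction all fell. Of 24 glutamate receptor genes 3 fell and 0 rose (12.5% and 0%, against 3.45% and 6.42% over all genes), with a median of -0.04. Grm5, a metabotropic receptor, read 5.37 on bLR replicate 3, 5.28 on bLR replicate 2 and 5.12 on bHR replicate 6, against 5.76 to 5.93 (median 5.83), a tight separation with an adjusted p of 0.00082 for a fall of 0.61 (SE 0.054). Grin2a and Grm7 fell by 0.45 and 0.42. Of 15 GABA receptor genes 3 fell and 0 rose (20.0% and 0%), with a median of -0.12, among them Gabra4, and Gabrg1 by 0.74. All 6 calls of both receptor lists held whichever array was left out. Postsynaptic scaffolds and kinases gave 4 falls and 3 rises of 41 (9.76% and 7.32%), in a list that also holds other synaptic genes. The rises that held with each array left out were Nrxn3 (0.34), a presynaptic adhesion gene, and Ppp1r1b (0.41), a phosphatase inhibitor gene. The falls in that list, led by Dlg1 at -0.40, came to 0 on omission of bLR replicate 3 or 4, to 1 on omission of bLR replicate 1 or 2, and to 2 on omission of bHR replicate 2 or 4 or bLR replicate 6, while the rises came to 6 on omission of bHR replicate 3 or 6.

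Ion channels and pumps moved in both directions, as did called members of the Cacng family. Of 42 potassium channel genes 5 rose and 4 fell (11.9% and 9.52%, against 6.42% and 3.45% over all genes). Their median difference was -0.06, and 29 of the 42 had a difference below 0. The voltage-gated pore genes Kcnd2 (0.45), Kcnc1 (0.46) and Kcna1 (0.40) rose. Kcnab1, a cytosolic partner of such pores, read 5.82, 6.35 and 6.97 on bLR replicate 3, bLR replicate 2 and bHR replicate 6, against 7.16 to 7.62 (median 7.53), and fell by 1.01 (SE 0.183, adjusted p = 0.00846). Omission of bLR replicate 3 left 2 rises and 2 falls, and omission of bLR replicate 1 left 3 rises. Among 27 calcium, sodium and HCN channel genes 4 rose and 5 fell (14.8% and 18.5%). The median there was -0.09, and 18 of the 27 had a difference below 0. The sodium channel pore genes Scn2a and Scn3a rose by 0.54 and 0.50, while the auxiliary subunit gene Scn2b fell by 0.51. Of the Cacng family, which accompanies AMPA receptors, Cacng2 rose by 0.32, and Cacng8 and Cacng3 fell by 0.54 and 0.53. The classes overlapped for Scn2a, Scn3a, Scn2b and Cacng3. Scn3a was the only call of that list that held with each array left out. Calls in that list depended on single arrays, with 0 falls on omission of bLR replicate 3, 1 on omission of bLR replicate 1, 2 or 4, 2 on omission of bHR replicate 4 or bLR replicate 6, and 3 on omission of bHR replicate 2. Its rises came to 1 on omission of bLR replicate 3 and 2 on omission of bHR replicate 6.

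Of 17 ion pump genes 2 rose and 2 fell (11.8% each), and all 4 calls held with each array left out. Slc12a2, the chloride importer, read 8.19, 8.23 and 8.39, against 7.64 to 7.89 (median 7.79), and rose by 0.52 (SE 0.0551, adjusted p = 0.00187). The plasma membrane calcium pump gene Atp2b1 rose by 0.39. The sodium pump gene Atp1b2 fell by 0.66, and leaving out bHR replicate 6 raised the falls of the list to 4.

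Cytoskeletal genes were split as well, 4 higher and 4 lower of 36 (11.1% each). Actb read 10.29, 10.63 and 11.35 on bLR replicate 3, bLR replicate 2 and bHR replicate 6, against 11.53 to 11.82 (median 11.63). It fell by 0.85 (SE 0.164, adjusted p = 0.0111), between the middle and 3′ control sets of the same transcript. The neurofilament relative Ina read 8.18, 8.05 and 7.93, against 7.40 to 7.65 (median 7.57), and rose by 0.53 (SE 0.0761, adjusted p = 0.00491). Map1b, a microtubule-associated protein of axons, fell by 0.32, and Dclk1, a kinase that binds microtubules, rose by 0.42. Rises came to 2 on omission of bLR replicate 1 or bHR replicate 6, and falls to 8 on omission of bHR replicate 6. Glycolysis is given here because it holds a hexokinase, like the control transcripts. Hk1, a hexokinase of brain, fell by 0.68 (SE 0.102, adjusted p = 0.00529), and Pfkm, a phosphofructokinase, by 0.43, the 2 falls (20.0%) among 10 measured genes of glycolysis with 0 rises. Pfkm was not called without bLR replicate 3 (adjusted p = 0.087).

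Splicing factors, mitochondrial ribosomal proteins and chromatin genes had more rises than falls, in small counts, against 6.42% and 3.45% over all genes. Their median levels were 6.67, 6.50 and 6.30. In the level group that holds these values (5.90 to 6.93), 11.3% of all genes rose and 4.82% fell. The lists' shares of rises were thus no higher than among genes of like level. Of 54 splicing factors and hnRNPs 5 rose and 1 fell (9.26% and 1.85%), with a median of 0.04. Srsf11 rose by 0.40 (SE 0.0501, adjusted p = 0.00283), from 6.52 to 6.64 (median 6.60) on the other arrays to 6.90, 6.95 and 7.08, and it was the list's one call that held with each array left out. Mitochondrial ribosomal proteins gave 5 rises and 0 falls of 61 (8.20%), with a median of 0.03, and Mrpl48 (0.42) and Mrps6 (0.37) held. Mitochondrial rises came to 2 on omission of bLR replicate 1 or bHR replicate 4 and 3 on omission of bHR replicate 2 or bLR replicate 3, and the falls to 1 on omission of bHR replicate 5 and 2 on omission of bHR replicate 6. Splicing factor rises came to 2 on omission of bLR replicate 1 or 4 or bHR replicate 6 and 3 on omission of bLR replicate 2 or 3, and the falls to 0, 3 and 2 on omission of bLR replicate 2, bHR replicate 3 and bHR replicate 6. Centring on the revised hybridisation controls called 1 and 0 rises in these lists and turned both medians negative (-0.02 and -0.03), the older controls gave 2 and 1 rises with medians of 0.09 and 0.07, and repeated quantile normalization turned the mitochondrial median to -0.01. Among 18 histone and chromatin genes 2 rose (11.1%) and 0 fell, with Smarca2, a chromatin remodelling ATPase, at 8.99, 8.98 and 8.98 against 8.38 to 8.63 (median 8.56) and a difference of 0.45 (SE 0.0546, adjusted p = 0.00255). The DNA-binding insulator protein gene Ctcf rose by 0.41 and was not called without bHR replicate 6 (adjusted p = 0.099), and the rises came to 4 on omission of bLR replicate 2 or bHR replicate 3.

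**Figure D5:**
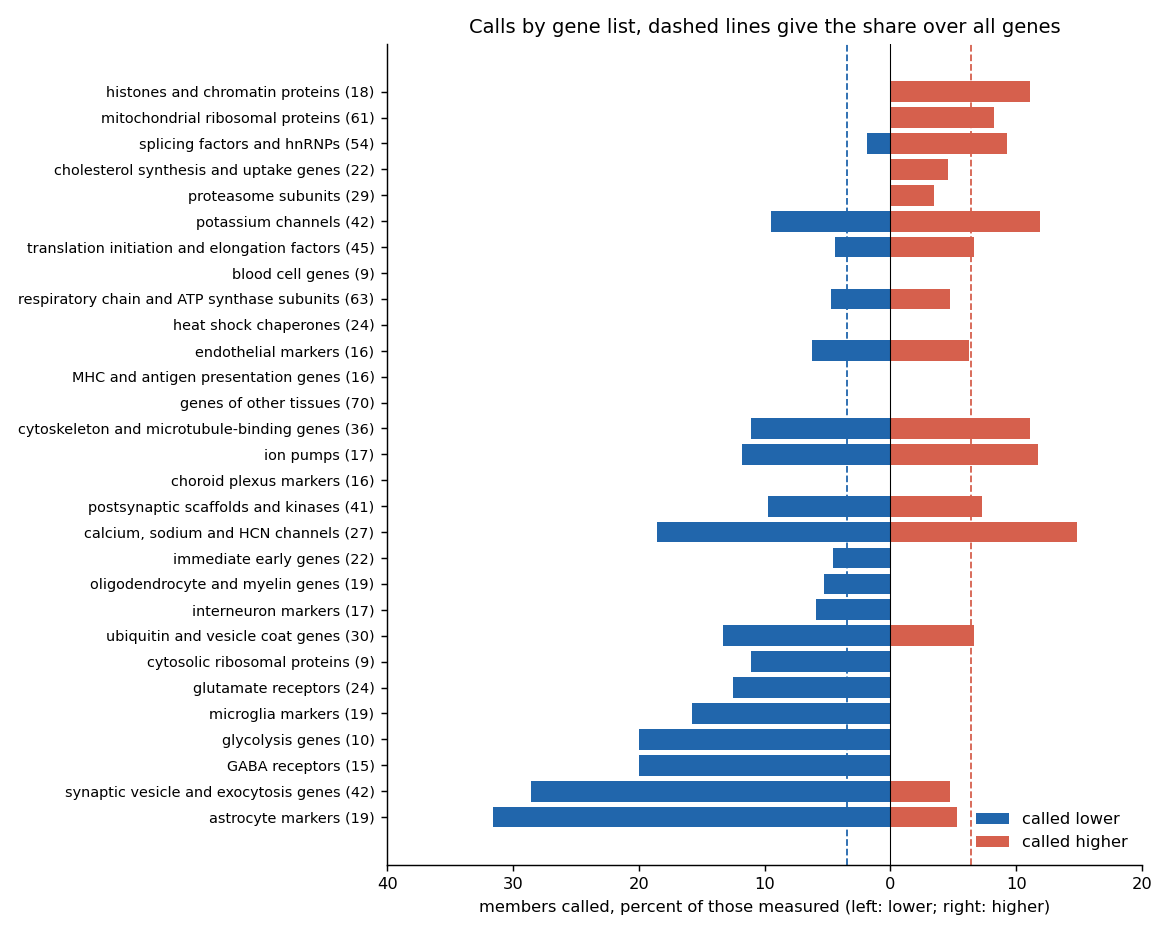
Share of the measured members of each of 29 gene lists called lower (left, blue) or higher (right, red) on the loss arrays, in percent, with the number measured in brackets and dashed lines at 3.45% and 6.42%, the shares over all genes. Astrocyte markers and synaptic vesicle genes have the longest blue bars, at 31.6% and 28.6%.

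Markers of other cell types and tissues were counted in the same way. Of 19 microglia markers 3 fell and 0 rose (15.8% and 0%), namely Cx3cr1 by 0.23, C1qb by 0.33 and Cyba by 0.28, but 0 were called on omission of bLR replicate 3 and 1 on omission of bLR replicate 4 or bHR replicate 6. At an unadjusted p under 0.05 there were 9 of the 19. Interneuron markers had 1 fall of 17 (5.88%), Gad2, an enzyme of GABA synthesis, by 0.52 (SE 0.0774, adjusted p = 0.00524). Choroid plexus markers had 0 calls in limma among 16 and 0 at an unadjusted p under 0.05, and their summed level spread as widely on the loss arrays (9.45 to 11.41) as on the others (9.49 to 11.62). All 9 blood cell genes had a lower mean on the loss arrays, with 0 calls and 1 at an unadjusted p under 0.05, Hbb, a subunit of haemoglobin, which read 8.83, 10.35 and 9.29 on bLR replicate 3, bLR replicate 2 and bHR replicate 6, against 10.02 to 10.45 (median 10.24). Its difference was -0.79 (SE 0.235, adjusted p = 0.0573), and it lay low on only 2 of the loss arrays. The part of blood in the results was not tested. Of 70 genes of liver, muscle, pancreas, testis and milk, which mark no cell of this tissue and had a median level of 4.61, 0 were called and 5 had an unadjusted p under 0.05, while 50 had a lower mean on the loss arrays.

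The remaining lists held few calls, some at shares above those over all genes (6.42% higher and 3.45% lower). Oligodendrocyte and myelin genes had 1 fall of 19 (5.26%) and a summed level of 13.36 to 13.66 on the loss arrays against 13.46 to 13.84. Endothelial markers had 1 rise and 1 fall of 16 (6.25% each), and immediate early genes 1 fall of 22 (4.55%). The cytosolic ribosomal protein list, drawn by symbol, had 1 fall of 9 (11.1%), the ribosomal protein-like gene Rpl7l1. No other member of it was called. Respiratory chain subunits had 3 rises and 3 falls of 63 (4.76% each), and translation factors 3 rises and 2 falls of 45 (6.67% and 4.44%). Ubiquitin and vesicle coat genes had 2 rises and 4 falls of 30 (6.67% and 13.3%). Proteasome subunits had 1 rise of 29 (3.45%) and cholesterol genes 1 rise of 22 (4.55%). Of these calls, those that held with each array left out were the rises of Tjp1, Ndufa6, Psmd1 and Eif4g3 and the falls of Rpl7l1 and Copg1. Heat shock chaperones (24 genes) and genes of the major histocompatibility complex (16 genes) had 0 calls in limma, with 3 and 2 genes at an unadjusted p under 0.05.

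With the class as a term, the comparison of the lines themselves changed little. Limma called 0 genes, 0% of those tested, between bHR and bLR with the term and 0 without it, the smallest adjusted p with the term was 0.477, and a trended and robust prior also called 0. Genes at an unadjusted p under 0.05 numbered 305 with the term and 293 without it. The median residual standard deviation over genes was 0.0871 with the term and 0.0958 without it.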

How the data were processed

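Log2 values for 10019 probe sets on 12 Affymetrix RAE230A arrays were made by the authors with RMA (affy 1.54.0, per the submitters' processing notes) and a custom probe definition that assigns probes to genes (version 19, per the series' design text). RMA brings all arrays to one distribution of probe signals by quantile normalization and then makes gene values, so levels are relative to the rest of the array. No build is named, so no coordinates are given. Of the probe sets, 57 are controls. Of the 9962 genes, 9831 were named through RefSeq (GRCr8), 17 through the platform annotation only, and 114 stayed unnamed but tested.

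Line was taken from the labels. Each array is a separate rat, and replicates are numbered in accession order. Arrays have no read depth, so their number limits the precision. The gene tests used limma's moderated statistic (version 3.58.1, R 4.3.3), with class and line as terms, Benjamini-Hochberg adjustment over 9962 genes and a threshold of 0.05. The 5′ minus 3′ values were tested by two-sided exact permutation within lines. The steps were tested on simulated data.

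The classes, gene lists and tests were chosen with earlier results of these data known. Named genes are the 14 largest rises and 14 largest falls as described, Nsf and Sv2b, and, from every list of at least 5 measured genes, at most 4 members taken by smallest p. Other called list members, and Prox1, Hpca, Nrgn, Gfap and Aldoc, were chosen after their values were seen. Alternatives were other array sets, scalings, priors, thresholds, a block, continuous dap and beta-actin values and a Ttr covariate. Centring on hybridisation controls (revised, older or all) and bHR arrays alone were added after the data were seen. Single-probe values and Bioanalyzer readings were not used here. Results for some genes are not reported here.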

Additional observations from a re-analysis of the deposited data

Results flagged for a closer look

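Among the 7 other arrays, 147 values were examined for an array standing far from the rest, and 8 had one. Chance gives about 1 in 20. On bHR replicate 3, which had the lowest dap value of the 7, Eif4g3 was high at 7.21 (next 6.86) and Ggnbp2 at 5.95 (next 5.58), both towards the loss arrays. The beta-actin 5′ minus 3′ value of that array, -1.95 (next -1.61), also stood apart. On bHR replicate 2, Grin2a was high at 5.64 (next 5.39) and Junb at 5.99 (next 5.82). Rap1gds1 was high on bHR replicate 5 at 7.37 (next 7.10), Eif4ebp2 high on bLR replicate 6 at 5.91 (next 5.72) and Psmd7 low on bLR replicate 4 at 7.61 (next 7.71).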

How the results depend on the processing

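All 984 calls kept their direction in every alternative that tested them (954 of the 984 where the lowest 25% of genes were left out), while their number moved. Leaving out 1 array gave 366 to 1164 calls (240 to 739 higher, 126 to 425 lower). bLR arrays alone gave 383 higher, repeated quantile normalization 401 higher, and a continuous dap or beta-actin value 527 or 526 lower. An adjusted p under 0.01 gave 221 (133 higher, 88 lower) and under 0.10 gave 1694 (1075 and 619). Centring on hybridisation controls gave 204 (37 and 167) from the revised probe sets, 297 (178 and 119) from the older ones and 265 (105 and 160) from all 18, and bHR arrays alone gave 0 in both directions, with 1 array against 4. The causes were not tested. Differences between the lines gave 0 to 2 calls with 1 array left out (omission of bHR replicate 6 leaves no such test). Without line as a term, beta-actin (-1.37), GAPDH (-0.81) and thr (-0.74) passed, in a permutation across lines whose smallest possible p is lower. With the number in the titles as a random replicate block there were 1016 calls (655 higher, 361 lower). Deviations of same-numbered arrays correlated at -0.33, 0.26 and 0.41, so the numbers were not taken to pair arrays. Classes by transcript length were not run, since no transcript lengths were at hand. With 3 loss arrays, of which 1 is bHR, the lines' difference in response has little precision.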

Other observations

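Genes were also counted by the letters their symbols begin with, for the 37 beginnings shared by at least 20 measured genes, a grouping chosen after the data were seen. Rab genes, small GTPases of membrane traffic, had the highest share of falls, 5 of 44 (11.4%, against 3.45% of all genes), beside 4 rises (9.09%, against 6.42%). Phosphodiesterase genes (Pde) came next with 2 falls of 20 (10%) and 0 rises. Shares of rises were highest for Trim genes, many of them ubiquitin ligases, with 4 of 22 (18.2%), then Sec (3 of 21, 14.3%), Med, subunits of the Mediator complex (3 of 22, 13.6%), and Gpr, receptors that couple to G proteins (4 of 30, 13.3%). Collagen (Col), fibroblast growth factor (Fgf) and interleukin (Il) genes had 0 calls in limma among 26, 22 and 42 genes, with 2, 2 and 4 at an unadjusted p under 0.05 and median levels of 5.03, 4.65 and 4.71.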
